A study of Homo sapiens with 9 samples.

Results

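The aminoacyl-tRNA synthetases are the enzymes that join each amino acid to its transfer RNA. A fixed list of 35 of their genes, 19 for cytosolic and 16 for mitochondrial enzymes, was followed in A375P melanoma cells. Each gene was taken from an array row that names no other gene, and from the row with the highest mean where several existed. By this rule 31 of the 35 genes had a row, 18 cytosolic and 13 mitochondrial, out of 17047 genes with such a row in all. The other genes, FARSB, EARS2, SARS2 and YARS2, lie on rows shared with another gene and were not tested. All 31 genes passed a filter that left out the dimmest 25% of genes, and they are set against the 12786 genes that were tested.

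A375P is an established human melanoma line that carries a mutant RAF kinase. Its cells received 1 µM PD184352, which inhibits the MEK kinases, or 0.4 µM PLX4720, an inhibitor of RAF kinases, or the solvent DMSO, and RNA was taken after 2, 6 and 24 h. The 9 deposited columns, called arrays here, hold 1 combination of treatment and time each. The series' design speaks of triplicates, and the sources used here do not tell whether a column is an average of them. All groups are 1 cell line grown in the same medium, and the DMSO arrays carry the solvent alone. Because no group had more than 1 array, the tests set both inhibitor arrays of a time against the DMSO array of that time. The spread in these tests is that between PD184352 and PLX4720, which are different compounds and not replicates, and it holds nothing of the variation between DMSO cultures.

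Cytosolic synthetases charge the transfer RNAs read by cytosolic ribosomes, and several of them sit together in a multisynthetase complex held by scaffold proteins. A separate set, encoded in the nucleus and imported, charges the transfer RNAs of mitochondria, and its gene names end in 2. GARS1 and KARS1 serve both compartments. Many cytosolic synthetase genes are known targets of ATF4, the transcription factor of the amino acid and integrated stress response, which binds C/EBP-ATF composite elements near their starts.

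Median intensities lay between 98.96 and 102.35 on the 9 arrays. At the bright end, the 99th percentile was 1550 to 1654 on the inhibitor arrays and 1681 to 1754 on the DMSO arrays. All 5 of the ERK feedback genes used as a check of the treatments (DUSP6, SPRY2, SPRY4, ETV4 and ETV5) fell at both 6 h and 24 h by limma. At 2 h limma called 1 of the 5, SPRY4 (log2 change −1.94, adjusted p = 0.0270). It did not call DUSP6 (−2.88, adjusted p = 0.158) or SPRY2 (−2.44, adjusted p = 0.187) then, so the 2 h test missed large differences. Over all tested genes 2.74% fell at 6 h, and 19.1% fell and 12.5% rose at 24 h. Of 7 melanocyte lineage markers, 5 had a row of their own and passed the filter on dim genes, while TYR and DCT had none. Of these 5, S100B (0.84), MLANA (0.67), SOX10 (0.51) and PMEL (0.44) rose at 24 h on the log2 scale, and MITF, named after its values were seen, did not pass (0.22). Their summed intensity at 24 h was 5535 with PD184352 and 5244 with PLX4720, against 3945 with DMSO, and the part of this in the changes of the synthetase genes was not tested. Of 9 markers of other cell types, 7 had a row. KRT14, COL1A1, COL1A2 and CD14 also passed the filter, with 0 of these 4 called at 24 h, and KRT1, PTPRC and CD3E were below it. The filter alone therefore does not separate the melanocyte markers from those of other cell types. Each array read RNA of a whole culture, so a change in some of the cells and a smaller change in all of them cannot be told apart.

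After 24 h, 16 of the 18 cytosolic synthetase genes fell with the inhibitors, QARS1 rose and LARS1 did not pass the test. Among all tested genes 19.1% fell and 12.5% rose by the same test, limma on log2(intensity + 1) with a Benjamini-Hochberg adjusted p below 0.05 over all genes. The median log2 change was −0.47 for the cytosolic genes, with a range of −1.11 to 0.29, and −0.01 for all tested genes. Of the 13 mitochondrial genes 5 fell and 8 did not pass, with a median of −0.21 and a range of −0.54 to 0.07. After quantile normalization of the arrays, which evens out the upper end of the intensities, 13 cytosolic and 5 mitochondrial genes fell, and the cytosolic median was −0.36.

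**Figure D1:**
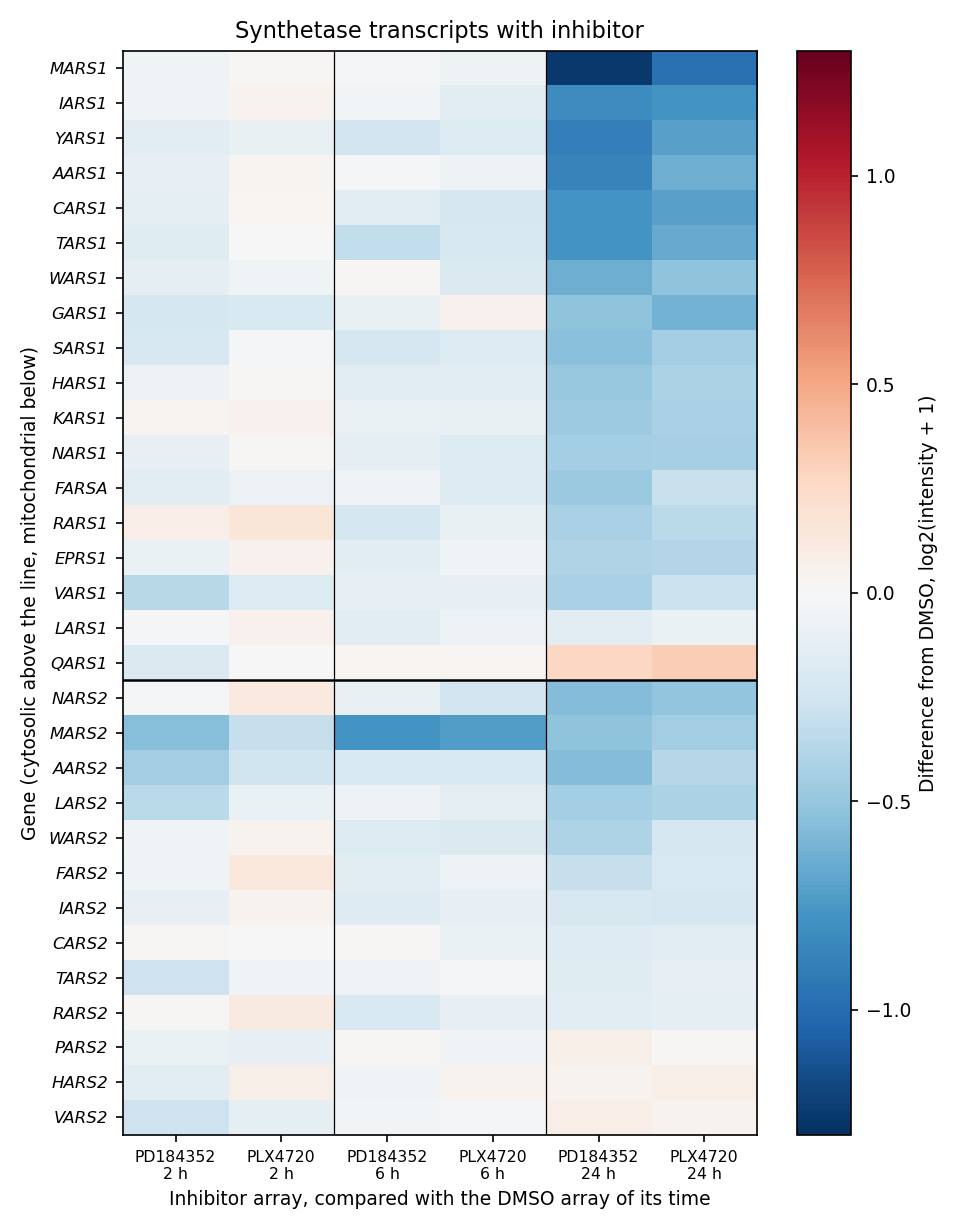
Differences from the time-matched DMSO array on the log2(intensity + 1) scale, for each of the 31 synthetase genes (rows) and each inhibitor array (columns). The 24 h columns hold most of the strong differences of the cytosolic genes, MARS1 having the lowest value, and MARS2 is low at every time.

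MARS1, the methionyl-tRNA synthetase of the cytosol, had the largest change. Its intensity at 2, 6 and 24 h was 2622, 2868 and 1546 with PD184352, 2744, 2785 and 1884 with PLX4720, and 2718, 2911 and 3690 with DMSO. Both 24 h inhibitor arrays lay below every other array, at 41.9% (PD184352) and 51.1% (PLX4720) of the 24 h DMSO value. The log2 change at 24 h was −1.11 (SE 0.11, limma adjusted p = 6.17e-05).

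IARS1, which charges isoleucine, read 1358, 1468 and 997.8 with PD184352 at 2, 6 and 24 h, 1451, 1366 and 1027 with PLX4720, and 1401, 1504 and 1764 with DMSO. The pair of 24 h inhibitor values was the lowest of its 9, and the log2 change was −0.80 (SE 0.09, adjusted p = 0.000108). For YARS1, the tyrosine enzyme, the values were 485.1, 464.2 and 321.1 with PD184352, 503.7, 488.9 and 364.5 with PLX4720, and 538.1, 552.2 and 595.5 with DMSO. Every inhibitor array was below the DMSO array of its time, and at 24 h the log2 change was −0.80 (SE 0.10, adjusted p = 0.000193).

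AARS1, the alanine enzyme, had the largest difference between 24 h and 2 h DMSO arrays of the cytosolic genes. It read 2213, 2535 and 2039 with PD184352, 2444, 2455 and 2392 with PLX4720, and 2389, 2562 and 3722 with DMSO at 2, 6 and 24 h. The 24 h PLX4720 value of 2392 was just above the 2 h DMSO value of 2389, so the 24 h inhibitor arrays and the DMSO arrays of all times overlap. Its log2 change of −0.75 (SE 0.11, adjusted p = 0.000572) is against the 24 h DMSO array alone; against the mean of the 3 DMSO arrays it was −0.36 (adjusted p = 0.107).

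CARS1, the cysteine enzyme, read 390.2, 431.8 and 348.6 with PD184352, 429.2, 411.3 and 365.4 with PLX4720, and 423.0, 477.5 and 596.7 with DMSO. TARS1, the threonine enzyme, read 1456, 1395 and 1123 with PD184352, 1629, 1503 and 1228 with PLX4720, and 1624, 1741 and 1929 with DMSO. Both genes were lowest on the 24 h inhibitor arrays and highest on the 24 h DMSO array, and they fell by 0.74 (CARS1, SE 0.09, adjusted p = 0.000219) and 0.72 (TARS1, SE 0.10, adjusted p = 0.000508) on the log2 scale.

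WARS1, the tryptophan enzyme that is also known as an interferon-induced gene, read 459.2, 504.4 and 404.9 with PD184352, 479.8, 439.0 and 435.3 with PLX4720, and 497.0, 499.3 and 627.1 with DMSO. GARS1, which supplies glycine-charging enzyme to both compartments, read 954.4, 867.0 and 742.2 with PD184352, 978.8, 957.0 and 698.6 with PLX4720, and 1120, 924.0 and 1070 with DMSO. In both genes the 24 h inhibitor arrays stood below all DMSO arrays. Their log2 changes at 24 h were −0.58 (WARS1, SE 0.10, adjusted p = 0.00188) and −0.57 (GARS1, SE 0.09, adjusted p = 0.00112).

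The other 8 cytosolic genes that fell did so by 0.35 to 0.50 on the log2 scale. They were SARS1 (−0.50), HARS1 (−0.45), KARS1 (−0.45), NARS1 (−0.44), FARSA (−0.39), RARS1 (−0.39), EPRS1 (−0.38) and VARS1 (−0.35). SARS1 also loads serine on the selenocysteine transfer RNA, FARSA is the catalytic subunit of the phenylalanine enzyme, and EPRS1 holds the glutamate and proline enzymes in 1 chain. Without the 24 h PD184352 array, FARSA (−0.29, adjusted p = 0.0853) and VARS1 (−0.28, adjusted p = 0.0994) no longer passed.

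LARS1, the leucine enzyme, read 2194, 2209 and 2380 with PD184352, 2305, 2314 and 2470 with PLX4720, and 2211, 2435 and 2621 with DMSO, a log2 change of −0.11 at 24 h (adjusted p = 0.397) that was 0.03 after quantile normalization. Of the 18 cytosolic genes tested, QARS1, the glutamine enzyme, was the only gene called higher. It read 1655, 1937 and 2220 with PD184352, 1877, 1944 and 2295 with PLX4720, and 1882, 1909 and 1843 with DMSO. Both 24 h inhibitor values lay above all 3 DMSO values, with a log2 change of 0.29 (SE 0.10, adjusted p = 0.0418). Leaving out the 24 h PLX4720 array gave 0.27 (adjusted p = 0.110), leaving out the 24 h PD184352 array gave 0.32 (adjusted p = 0.0596), and leaving out either 6 h inhibitor array gave an adjusted p of 0.0637.

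**Figure D2:**
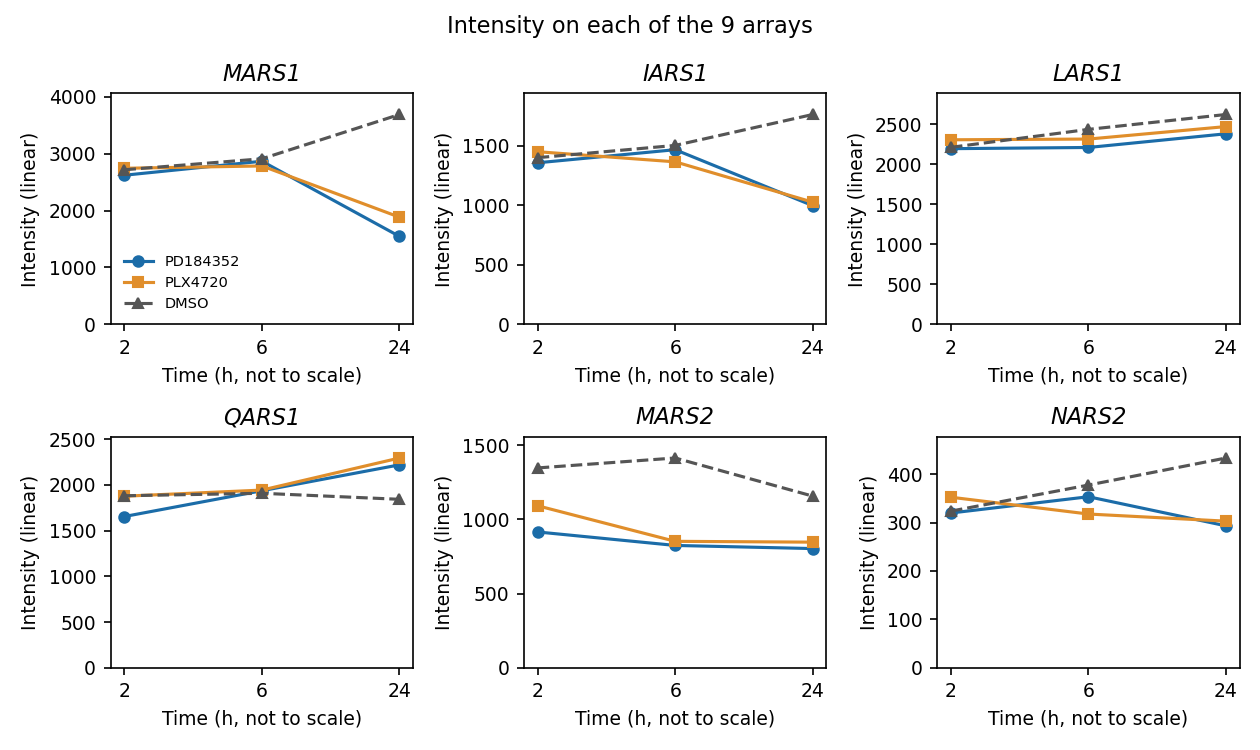
Intensity (linear axis from 0) against time for MARS1, IARS1, LARS1, QARS1, MARS2 and NARS2, with 1 point per array and a line each for PD184352, PLX4720 and DMSO. MARS1 and IARS1 part from DMSO at 24 h, LARS1 stays close to it, QARS1 lies above it at 24 h, and MARS2 lies below it at all times.

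Promoter windows of 250 bases before to 50 bases after a gene start, from RefSeq on GRCh38.p14, were given for 30 of the 35 genes, 26 of them tested, and for 10191 tested genes in all. A C/EBP-ATF composite element, searched as TGATGNAA on both strands, was found in 7 of the 15 tested cytosolic genes with a window (46.7%), in 0 of the 11 tested mitochondrial ones and in 2.81% of all tested genes with a window. With the untested genes counted too, it was in 7 of 16 cytosolic (43.8%) and 1 of 14 mitochondrial genes (7.14%), that 1 being YARS2. Of the 30 genes 9 had several windows, and a gene was counted if any of its windows matched. CARS1, GARS1 and TARS1 had 2 windows each, with the match in 1 of them. The stretches are shown because they hold the matches of the tested genes. Each runs 5′ to 3′ on the gene's strand, with the match in capitals, and TTGCATCA and TTTCATCA are the motif read on the opposite strand.
MARS1 (chr12:57488044-57488091, plus strand): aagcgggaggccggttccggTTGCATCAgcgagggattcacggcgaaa
IARS1 (chr9:92293683-92293730, minus strand): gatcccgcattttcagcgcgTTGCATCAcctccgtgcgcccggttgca
AARS1 (chr16:70289666-70289713, minus strand): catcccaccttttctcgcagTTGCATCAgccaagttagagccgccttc
CARS1 (chr11:3057398-3057445, minus strand): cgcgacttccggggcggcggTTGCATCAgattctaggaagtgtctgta
TARS1 (chr5:33440947-33440994, plus strand): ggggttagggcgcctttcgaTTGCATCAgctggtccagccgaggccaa
GARS1 (chr7:30594825-30594872, plus strand): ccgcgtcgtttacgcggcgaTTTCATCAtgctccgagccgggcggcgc
NARS1 (chr18:57621795-57621842, minus strand): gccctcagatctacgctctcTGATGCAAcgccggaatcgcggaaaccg

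All 7 of these genes fell at 24 h, as did 7 of the 8 tested cytosolic genes whose windows lack those letters. The genes with the motif had a median log2 change of −0.74 and a range of −1.11 to −0.44. Those without it had a median of −0.42 and a range of −0.58 to 0.29, so the ranges overlap. Over all tested genes the medians were −0.06 for 286 genes with the motif, of which 27.6% fell, and −0.01 for 9905 without it, of which 19.8% fell. LARS1, VARS1, YARS1, AARS2 and VARS2 had no window. A match is a description of the letters in the window and says nothing of binding in these cells.

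The other motifs searched each had matches in genes of both compartments, and their shares were not tested. The ETS-type letters CCGGAAG were in 9 of 15 tested cytosolic (60.0%) and 5 of 11 tested mitochondrial genes (45.5%), against 19.1% of all tested genes, and in 9 of 16 and 7 of 14 with the untested genes. The E-box CACGTG, to which MYC binds, was in 1 of 15 tested cytosolic (6.67%) and 2 of 11 tested mitochondrial genes (18.2%), against 12.3% of all tested genes. With the untested genes it was in 1 of 16 (6.25%) and 3 of 14 (21.4%).

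HARS1 and HARS2 are neighbours that start in opposite directions, 85 bases apart, and their windows share 184 bases. HARS1 fell at 24 h and HARS2, its mitochondrial partner, did not pass the test (0.06). The shared stretch is shown because both starts lie in it, on the HARS2 strand, with 2 CCGGAAG matches in capitals, 1 of them on the opposite strand.
HARS1 and HARS2 (chr5:140691321-140691504, plus strand): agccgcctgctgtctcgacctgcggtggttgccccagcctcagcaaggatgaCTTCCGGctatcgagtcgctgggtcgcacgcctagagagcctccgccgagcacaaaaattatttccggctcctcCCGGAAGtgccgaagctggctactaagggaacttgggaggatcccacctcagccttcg

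The lists used next were chosen with earlier results of these data known, and differences between them were not tested. At 24 h 19.1% of all tested genes fell and 12.5% rose, with a median log2 change of −0.01. Grouped by role, the 12 synthetases listed as ATF4-type had 11 members that fell and a median of −0.65. The 6 other cytosolic genes tested had 5 that fell, QARS1 that rose, and a median of −0.39. Of the 7 enzymes of the multisynthetase complex 5 fell, QARS1 rose and LARS1 did not pass, with a median of −0.39. AIMP1, a scaffold protein of that complex, had a log2 change of −0.25 (adjusted p = 0.0549), and the scaffolds AIMP2 and EEF1E1 had no row of their own. By fold of the catalytic domain, 10 of 16 class I genes fell and QARS1 rose, and 10 of 14 class II genes fell, with medians of −0.37 and −0.45. EPRS1, whose chain holds the glutamate and proline enzymes, fell and was counted in neither class.

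Among the mitochondrial enzymes, NARS2, which charges asparagine, had the largest change at 24 h. It read 319.6, 353.2 and 293.1 with PD184352 at 2, 6 and 24 h, 352.2, 317.5 and 302.8 with PLX4720, and 323.5, 377.3 and 433.2 with DMSO. The 24 h inhibitor arrays were the lowest of the 9, and the log2 change was −0.54 (SE 0.10, adjusted p = 0.00232).

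AARS2, the mitochondrial alanine enzyme, read 526.1, 569.7 and 402.4 with PD184352, 604.0, 571.5 and 461.4 with PLX4720, and 720.3, 656.0 and 595.4 with DMSO. LARS2, the leucine enzyme, read 606.7, 728.8 and 482.9 with PD184352, 726.1, 702.1 and 496.0 with PLX4720, and 772.3, 765.2 and 658.0 with DMSO. Both genes lay below the DMSO array of the same time on all 6 inhibitor arrays, and their DMSO values were highest at 2 h. They fell at 24 h by 0.47 (AARS2, SE 0.11, adjusted p = 0.00962) and 0.43 (LARS2, SE 0.11, adjusted p = 0.0135) on the log2 scale.

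WARS2, the tryptophan enzyme, was at −0.31 (SE 0.10, adjusted p = 0.0394), and at −0.21 (adjusted p = 0.222) without the 24 h PD184352 array and an adjusted p of 0.0598 without either 6 h inhibitor array. The 8 mitochondrial genes that did not pass ranged from −0.25 (FARS2) to 0.07 (VARS2). Of the genes that complete charging in mitochondria, MTFMT, which formylates the initiator methionyl-tRNA, fell on its brightest row (−0.33, adjusted p = 0.0409), and the mean over its rows did not pass (−0.29, adjusted p = 0.263), nor did it without the 24 h PLX4720 array (adjusted p = 0.0736). The subunits of the amidotransferase that makes glutaminyl-tRNA there did not pass, at −0.24 (QRSL1), −0.18 (GATC) and 0.09 (GATB).

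MARS2, the mitochondrial methionine enzyme, was the one synthetase gene called before 24 h. Its intensity was 915.5, 824.7 and 803.6 with PD184352 at 2, 6 and 24 h, 1092, 852.4 and 846.9 with PLX4720, and 1347, 1414 and 1157 with DMSO. All 6 inhibitor values lay below all 3 DMSO values. The log2 change was −0.43 at 2 h (adjusted p = 0.361), −0.75 at 6 h (SE 0.11, adjusted p = 0.00495) and −0.49 at 24 h (adjusted p = 0.00685). The F-test between times did not call it (adjusted p = 0.358).

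At 6 h MARS2 was the 1 of 31 synthetase genes that fell, where 2.74% of all tested genes fell, and medians were −0.10 (cytosolic), −0.11 (mitochondrial) and −0.02 (all genes). At 2 h limma called 0 of 31, where 0.086% of all tested genes were called in either direction, and medians were −0.05, −0.03 and −0.02. The 2 h test also missed DUSP6 at a log2 change of −2.88. A count of 0 therefore does not show that no gene fell early. The 2 h medians of both compartments were above 0 after quantile normalization (0.008 cytosolic, 0.013 mitochondrial) and without the 2 h PD184352 array (0.013 and 0.001). Before adjustment, p was below 0.05 for 4 genes at 2 h (GARS1, VARS1, AARS2 and MARS2) and for 2 at 6 h (TARS1 and MARS2), all lower. The share of all tested genes with such a p at these times was not counted. These counts therefore do not show an early fall of the synthetase genes.

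The change with inhibitor differed between the 3 times in 8 cytosolic genes and in NARS2, by an F-test that called 14.9% of all tested genes. The cytosolic genes were MARS1 (adjusted p = 0.00208), IARS1 (0.00394), CARS1 (0.0119), AARS1 (0.0157), YARS1 (0.0159), TARS1 (0.0329), KARS1 (0.0395) and GARS1 (0.0440). Without the 2 h PLX4720 array 5 cytosolic genes were called, and without the 2 h PD184352, 6 h PD184352 or 2 h PLX4720 array 0 mitochondrial genes were.

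**Figure D3:**
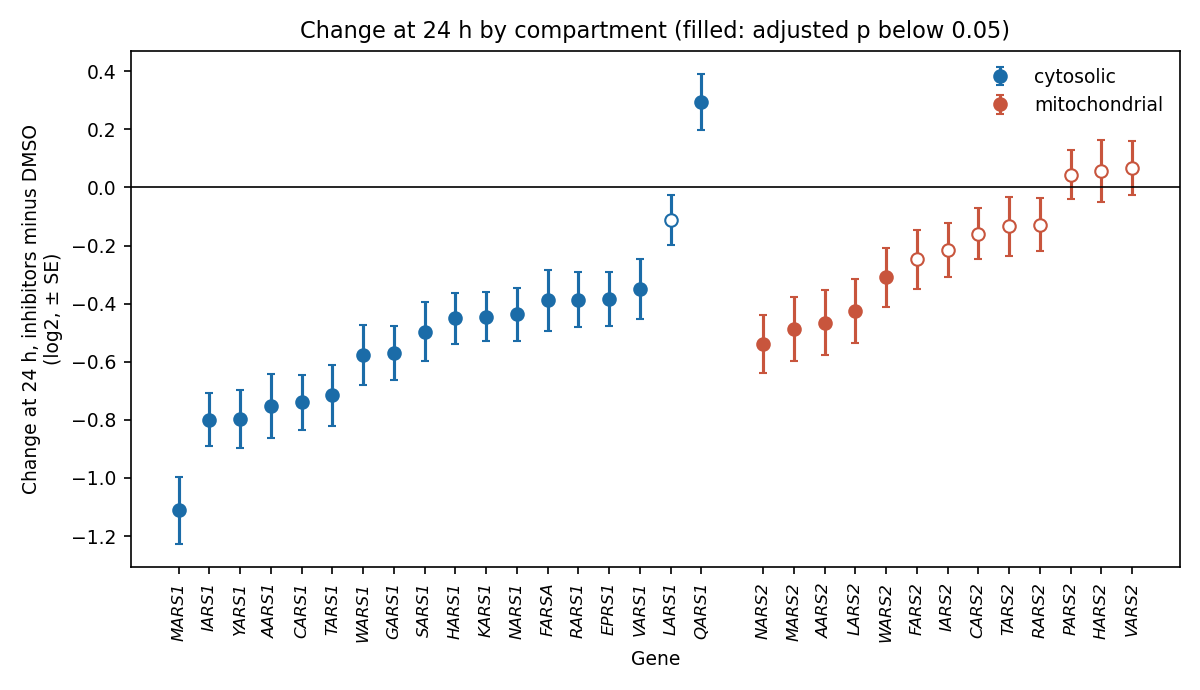
Log2 change at 24 h of the mean of both inhibitor arrays against DMSO for each synthetase gene, cytosolic genes left of mitochondrial ones, with bars of 1 SE from limma and filled points where the adjusted p was below 0.05. Cytosolic genes reach from −1.11 (MARS1) to 0.29 (QARS1) and mitochondrial genes from −0.54 (NARS2) to 0.07 (VARS2).

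DMSO levels of the cytosolic genes were themselves higher at 24 h than at 2 h, by a median of 0.25 on the log2 scale (range −0.26 to 0.64), against 0.08 for the mitochondrial genes and 0.01 for all tested genes. AARS1 (0.64), CARS1 (0.50), EPRS1 (0.46) and MARS1 (0.44) moved most, named here after their values were seen. Each DMSO time is 1 array, so this drift has no test. Both 24 h inhibitor arrays lay below all 3 DMSO arrays in 13 of 18 cytosolic and 8 of 13 mitochondrial genes, which is 21 of 31, against 30.6% of all tested genes. Of the 21 genes called lower, 18 met this and AARS1, EPRS1 and RARS1 did not. With the mean of the 3 DMSO arrays as the control, 13 cytosolic and 6 mitochondrial genes fell, and EPRS1 was at −0.14 (adjusted p = 0.408) and RARS1 at −0.22 (adjusted p = 0.159).

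Cytosolic and mitochondrial enzymes for the same amino acid were set side by side in 13 pairs. The cytosolic gene had the lower change at 24 h in 11 pairs, and did so with each compound, with a median difference of −0.42 between the log2 changes. The exceptions were leucine, where LARS1 minus LARS2 was 0.31, and asparagine, where NARS1 minus NARS2 was 0.10. For methionine the difference was −0.62 at 24 h and 0.71 at 6 h, since MARS2 was already low then. The cytosolic gene had the lower change in 7 pairs at 6 h and 5 at 2 h. On the 24 h DMSO array the cytosolic row was the brighter in each pair. The part of brightness in the pair differences was not tested, and the pairs were not compared after quantile normalization. The difference between compartments was not tested, because genes on the same arrays are not replicates.

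**Figure D4:**
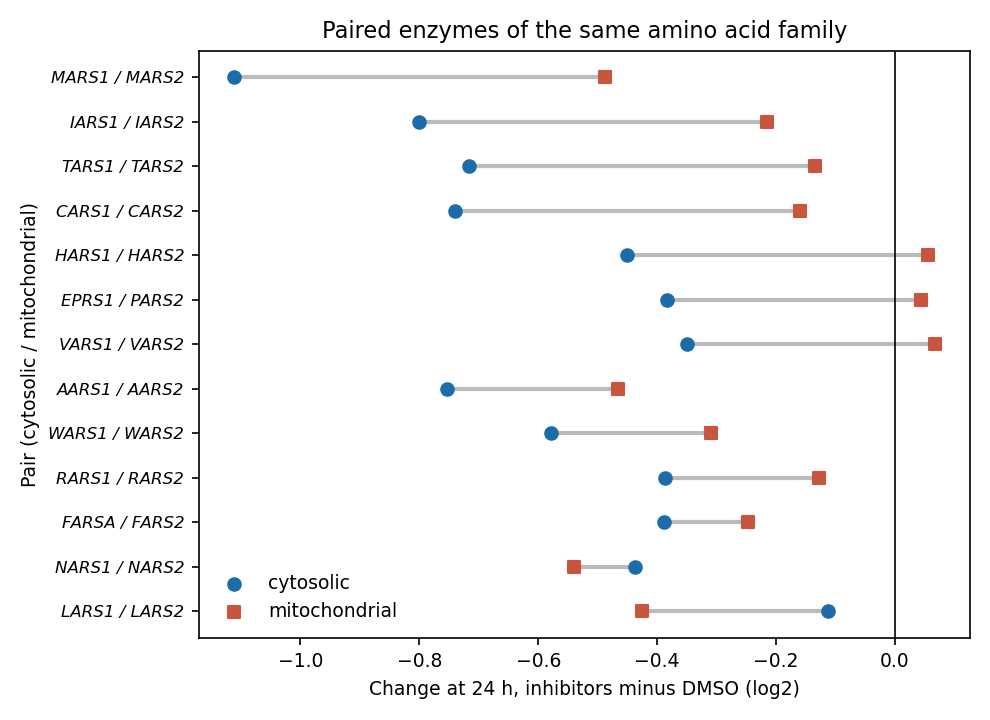
Log2 change at 24 h of the cytosolic and the mitochondrial synthetase gene of each of the 13 pairs, joined by a line. The cytosolic point lies lower in 11 pairs, with the leucine and asparagine pairs running the other way.

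PD184352 blocks MEK, and PLX4720 blocks the RAF kinase above it, at doses that differ (1 and 0.4 µM). Over the 3 times limma called 0 of 31 synthetase genes and 0.0% of all tested genes between the compounds. Before adjustment p was below 0.05 for 0 of the 31 and for 169 genes in all. With the 6 inhibitor arrays alone 0 genes were called as well. The main fit held the DMSO arrays too, and 1 difference for all 3 times. A change with inhibitor that grew over time therefore widened its spread. The 95% intervals of the difference included 0 in 31 of 31 genes, and their bounds reached from −0.67 to 0.46 on the log2 scale, so differences of that size are not excluded. This is the 1 pair of compounds compared.

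At 24 h 12 of the 31 genes read at least 0.5 lower (log2, 1.41-fold) with PD184352 than with DMSO, 9 cytosolic and 3 mitochondrial, against 11.1% of all tested genes. With PLX4720 these were 9 genes, 8 cytosolic and 1 mitochondrial, against 9.49%. These counts compare single arrays and have no test. The PD184352 value was below the PLX4720 value in 27 of 31 genes at 24 h, where it was in 50.2% of all tested genes. The same held in 16 of 31 at 6 h (42.0% of all) and in 29 of 31 at 2 h (70.1% of all), so at 2 h most genes on the arrays lay this way. The median difference at 24 h was −0.08 for cytosolic and −0.04 for mitochondrial genes.

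Genes around the synthetases were followed as lists. Over all tested genes 19.1% fell and 12.5% rose at 24 h, with a median log2 change of −0.01. Of 18 tested genes of ATF4 and its targets, 11 fell at 24 h, with a median of −0.57. They included SLC7A11, the cystine transporter (−2.23), CHAC1, which degrades glutathione (−1.96), and SLC1A5 (−1.82) and SLC7A5 (−1.28), which carry neutral amino acids. SLC1A5 has a dimmer row, also among rows of its own chromosome, that differed from DMSO by −0.34 (PD184352) and −0.40 (PLX4720), and the mean over its rows gave −1.10 (limma adjusted p = 2.5e-05). ATF3 was the 1 gene of this list that rose (0.52), and the ATF4 transcript itself did not pass (0.23), both named after their values were seen. MYC, a transcription factor that binds E-boxes, read 206.1, 188.5 and 196.2 with PD184352, 197.2, 205.9 and 220.9 with PLX4720, and 325.6, 341.6 and 378.0 with DMSO at 2, 6 and 24 h. All 6 inhibitor values of MYC were below all DMSO values, with log2 changes of −0.69 (adjusted p = 0.0504), −0.79 (adjusted p = 0.00235) and −0.86 (adjusted p = 0.000143). The part of ATF4 or MYC in the changes of the synthetase genes was not tested.

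Proteins that check or finish charged transfer RNAs, with TARS3 on the same list, moved in both directions. Of 6 tested, SEPSECS, which makes selenocysteine on its transfer RNA, rose (0.49). So did TARS3 (0.42), a paralog of TARS1 that is not among the 35 synthetase genes followed. At 24 h 12.5% of all tested genes rose and 19.1% fell. DTD1, which removes D-amino acids, fell (−0.31). Without the 24 h PD184352 array neither TARS3 (0.28, adjusted p = 0.0995) nor DTD1 (−0.27, adjusted p = 0.104) passed. AARSD1, which edits mischarged alanine transfer RNA, fell on the brightest of its rows (−0.35), but that row lies among rows of chromosome 1 while the gene is on chromosome 17, and the row among those of its own chromosome did not pass (−0.19, adjusted p = 0.155).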

How the data were processed

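Intensities on a linear scale were deposited by the authors, and the scale is read from the values. RMA, limma and R 2.8.0 appear, without role or order, in the submitters' processing notes, and no source used here states a genome build. Of 35446 rows, 19380 name 1 gene in the platform table, 3339 name several and 12727 are not listed there. Tests used limma 3.58.1 in R 4.3.3 on log2(intensity + 1), with no further normalization, for 12786 genes after 4261 dim ones (25%) were left out. The pseudocount understates changes of dim genes. One fit gave the change at each time and the F-test between times (residual degrees of freedom 3). Another, on all 9 arrays with DMSO included and time as a block, gave PD184352 minus PLX4720 (4). P-values were Benjamini-Hochberg adjusted over all genes and called below 0.05. Arrays carry no counting depth, and their number limits the precision.

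The members and lists were chosen with earlier results of these data known. Per-array values are given for the 8 cytosolic and 4 mitochondrial genes of largest change at 24 h, any called earlier, and any called against its compartment's direction. All scaffolds, mitochondrial charging partners and MYC are named, and from the remaining lists at most 4 genes by size. The scripts were tested on simulated data. Alternatives were the filter, pseudocount, quantile normalization, row choice, intensity trend, control arrays and leaving out each array.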

Additional observations from a re-analysis of the deposited data

Results flagged for a closer look

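For 9 synthetase genes the change with inhibitor against DMSO differed between 2, 6 and 24 h by limma's F-test, which is what singled them out. The adjusted p was 0.00208 for MARS1, 0.00394 for IARS1, 0.0119 for CARS1, 0.0157 for AARS1, 0.0159 for YARS1, 0.0329 for TARS1, 0.0395 for KARS1 and 0.0440 for GARS1. NARS2 was the 1 mitochondrial gene among them, at 0.0435. In all 9 the log2 change was lowest at 24 h.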

How the results depend on the processing

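Each group is 1 array, so single arrays limit every value. No paired analysis was possible because each group holds 1 array and the labels give no replicate numbers. Time was the block between the compounds. No called result changed direction, but of 70 values 8 changed sign in some setting. These were both 2 h medians (0.008 and 0.013 after quantile normalization), LARS1 (0.03 after it), and, among others that did not pass, VARS2 (−0.10), DDIT4 (0.24) and SLC1A4 (−0.09) with the mean of the 3 DMSO arrays, QRSL1 over all rows (0.03), and PSTK (−0.05). Of 22 synthetase genes called at 24 h, 15 kept their call in every setting. AARS1 and EPRS1 lost it with the mean of the 3 DMSO arrays, RARS1 there and after quantile normalization, and FARSA and VARS1 after quantile normalization or without the 24 h PD184352 array. QARS1 lost it without a filter, with an intensity trend (0 cytosolic genes higher in both) and without any of 4 inhibitor arrays, and WARS2 without a filter or 3 of the arrays. Leaving out 1 array gave 14 to 16 cytosolic and 4 to 5 mitochondrial genes lower, and 0 to 1 cytosolic genes higher. Over all tested genes, 3377 to 4066 were then called at 24 h in either direction. The F-test called 5 cytosolic and 0 mitochondrial genes without a filter, and 5 to 9 and 0 to 1 without 1 array. At 2 h the count over all genes, 11, was 1 without a filter, 33 with the lowest 50% left out, 0 after quantile normalization, 22 with a pseudocount of 16, 31 with the mean of the 3 DMSO arrays, 20 with rows of the own chromosome (an alternative chosen after seeing the data), and 0 to 95 without 1 array. At 6 h the count of 419 was 252 without a filter and 202 to 799 without 1 array.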

Other observations

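The brightest row that names FARSB, the other subunit of the phenylalanine enzyme, also names TRIM61. Its place among the rows of a chromosome was not examined, and its signal is not given to either gene here. It read 682.1, 692.4 and 305.3 with PD184352 at 2, 6 and 24 h, 771.9, 694.3 and 384.7 with PLX4720, and 753.3, 818.9 and 712.6 with DMSO. Both 24 h inhibitor values were the lowest of the 9, with log2 differences from DMSO of −1.22 (PD184352) and −0.89 (PLX4720). Dimmer rows of FARSB and TRIM61 differed by −0.049 and −0.04, and by −0.25 and −0.377. A row shared by SARS2 and MRPS12 differed by −0.62 and −0.53, and another row of the same genes by −0.05 and 0.01. The row shared by SARS2 and FBXO17 differed by 0.035 and 0.064. Of the rows shared by EARS2 and UBFD1, the brighter differed by −0.437 and −0.265 and the dimmer by 0.032 and 0.029. The row shared by YARS2 and NAP1L1 differed by −0.57 and −0.37. These are single-array values with no test.

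Which row stands for a gene mattered for ASNS, the asparagine synthetase that supplies the amino acid charged by NARS1 and NARS2. Its brightest row, which lies among rows of chromosome 8 while the gene is on chromosome 7, differed at 24 h by −0.46 (PD184352) and −0.34 (PLX4720). The row among those of chromosome 7 differed by −0.97 with each compound.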
